A study of Mus musculus with 13 samples.

Results

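The genes described here are the transporters that move amino acids and the neurotransmitters made from them across cell and vesicle membranes. They were taken as the protein-coding mouse genes, named by GENCODE M21, of the families Slc1, Slc3, Slc6, Slc7, Slc36, Slc38 and Slc43, together with the vesicular transporters Slc17a6, Slc17a7, Slc17a8 and Slc32a1. The rule found 68 of the 55416 genes in the count table, and 1 of them, Slc7a6os, carries the family's letters because it is named for the strand opposite Slc7a6, not because it is a transporter. RNA was sequenced from 13 mouse libraries in 3 groups. The PDGFB tumors (5 libraries) were glioblastomas raised by a lentivirus that carries PDGFB and a short hairpin RNA against p53, and the RAS tumors (5 libraries) were raised by one that carries HRasV12 and the same hairpin. Both were induced in the motor cortex of mice with Cre under the oligodendrocyte gene CNP and were collected as GFP-positive tissue at the clinical endpoint, from 5 mice per group. The normal brain group (3 libraries) is labelled WT, and neither its brain region nor its relation to the tumor-bearing mice is given. The title of 1 of the 3 begins with MBT and those of the other 2 with NBT, a difference that the labels do not explain, and each is labelled as normal brain. These titles also end differently, in M1, F1 and F2 for normal libraries 1 to 3, and the endings were not used as a factor. The ages of the mice are not stated, and the labels do not say that the normal libraries came from separate mice, so that p-values measure the spread between these samples only.

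Excitatory transmission depends on clearing glutamate from the synapse, and in the adult brain most of that uptake is done by the astrocyte carriers encoded by Slc1a2 (GLT-1) and Slc1a3 (GLAST), while Slc1a1 (EAAC1) is mostly neuronal. Vesicles are filled with glutamate by the Slc17a6 and Slc17a7 products and with GABA or glycine by the Slc32a1 product, and the Slc6 family returns GABA, glycine, taurine, creatine and proline to cells along the sodium gradient. Neutral, branched-chain and basic amino acids enter through heterodimers of a heavy chain (Slc3a1 or Slc3a2) and an Slc7 light chain, through the Slc43 carriers, and through the Slc38 carriers, which move glutamine and other small neutral amino acids between astrocytes and neurons. In gliomas, carriers of large neutral amino acids and of cystine are often studied as routes by which tumor cells are fed.

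Reads from a gene and from an exon on the other strand could not be told apart, because the strand setting of the count is not given in the sources used here. Of the 68 genes, 15 have an exon that overlaps an exon of a gene on the opposite strand, 10 lie opposite an intron only, and 43 have no gene opposite. Those 15 genes held 81.3% of all reads counted to the 68, close to the 84.0% of all gene reads that stood in the 17.1% of genes with an opposite exon. At Slc1a2 the overlap is 189 bases, or 1.44% of its exon length, with the antisense RNA Gm13872. At Slc32a1 it is 697 bases, or 24.9%, with Gm14205. Those 697 bases are 94.3% of the exon length of Gm14205. In normal brain Gm14205 averaged 801 CPM (reads per 1000000 gene reads) and Slc32a1 18.6 CPM, while Gm13872 averaged 1319 CPM and Slc1a2 334 CPM. Whether reads were counted to the strand opposite their source was not tested. The level of a gene with an opposite exon may therefore not be that of its own RNA. The strand setting bears on all genes of a library, not only on these 15. Whether it also lowered the counts of genes with no gene opposite, such as Slc1a3, Slc17a7 and Slc3a2, was not tested. Their CPM may therefore not give the level of their RNA either. The 3 stretches below are shown because they hold coding bases of the glutamate and GABA transporter genes that lie opposite a noncoding RNA. For Slc32a1 only the last 190 coding bases of exon 1 are printed, of which 165 lie opposite, and its other overlapping bases are not shown. They are on the plus strand of GRCm38, with exons taken from GENCODE M21. Capitals mark the bases that lie opposite an exon of the noncoding gene.
Slc1a2 exon 3 at chr2:102737777-102737929, with 23 of 153 bases opposite Gm13872: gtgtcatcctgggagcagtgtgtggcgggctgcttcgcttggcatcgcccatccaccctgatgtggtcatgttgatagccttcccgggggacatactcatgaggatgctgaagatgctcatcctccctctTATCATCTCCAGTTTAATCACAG
Slc1a2 exon 5 at chr2:102743808-102743973, with 166 of 166 bases opposite Gm13872: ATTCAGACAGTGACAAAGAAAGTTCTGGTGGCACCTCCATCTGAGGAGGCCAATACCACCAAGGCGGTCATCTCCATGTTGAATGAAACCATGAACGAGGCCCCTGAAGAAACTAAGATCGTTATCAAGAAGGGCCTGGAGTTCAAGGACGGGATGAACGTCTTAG
Slc32a1 end of exon 1 at chr2:158611442-158611631, with 165 of 190 bases opposite Gm14205: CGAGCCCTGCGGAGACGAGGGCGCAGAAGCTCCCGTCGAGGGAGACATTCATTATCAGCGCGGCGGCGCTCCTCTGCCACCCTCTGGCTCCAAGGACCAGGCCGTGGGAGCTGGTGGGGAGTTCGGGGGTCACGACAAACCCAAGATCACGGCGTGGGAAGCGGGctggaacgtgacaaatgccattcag
These capitals mark where reads of the transporter and of the RNA opposite it could both fall. They do not show on which strand the reads arose.

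The libraries held 13952738 to 15607754 reads, of which 529162 to 643055 were counted to a gene. Between 95.2% and 95.7% of the uniquely mapped reads of a library fell in no gene, so that the values below rest on few reads per gene. The 68 genes took 0.206% to 0.267% of the gene reads in PDGFB tumors, 0.132% to 0.262% in RAS tumors and 0.495% to 0.536% in normal brain. RAS tumor 2 held the highest share of the RAS tumors and stood apart for several of the transporters, and results that rest on it are given with and without it. The summed level of 9 neuron markers with no opposite exon was 364 CPM in RAS tumor 2 (reads per 1000000 gene reads), against 44.5 to 128 CPM in the other RAS tumors. Over all 12 neuron markers it was instead the lowest RAS tumor, at 4039 CPM, against 4109 to 8554 CPM in the other RAS tumors. In all 68 genes, 54 had a read in at least 1 library, and 24 passed the filter on low counts, by which the tests below were run among 7722 genes. Of the 24, 10 have an opposite exon. Differences are log2 fold changes with standard errors, from edgeR's quasi-likelihood test with Benjamini-Hochberg adjustment over all 7722 genes, and a gene is called at an adjusted p under 0.05.

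Against normal brain, more of the 24 tested genes were called lower than higher in both tumors, as were more of all genes tested. In PDGFB tumors 5 of the 24 were called higher and 8 lower, and 14 did not overlap with normal brain in CPM. Among all genes tested 20.2% were called higher, 25.1% lower and 45.3% either way, and 51.4% did not overlap. In RAS tumors 3 were called higher (6 without RAS tumor 5) and 12 lower, and 13 did not overlap, against 26.9% higher, 29.3% lower, 56.2% either way and 52.1% not overlapping among all genes. Without RAS tumor 5, 2121 of all genes were called higher, against 2081 with it. The median log2 difference of the 24 was -0.07 in PDGFB tumors and -0.43 in RAS tumors, beside 0.00 in PDGFB tumors and 0.02 in RAS tumors for all genes tested. A filter on low counts keeps a gene through the group where it is high, so these counts describe the 24 genes and not the 68. When libraries were scaled by their totals alone, the all-gene split moved to 2045 higher and 1556 lower in PDGFB tumors, against 1558 and 1940, and the median of all genes moved by 0.23. In tissue, fewer cells of a type and less RNA per cell cannot be told apart.

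**Figure D1:**
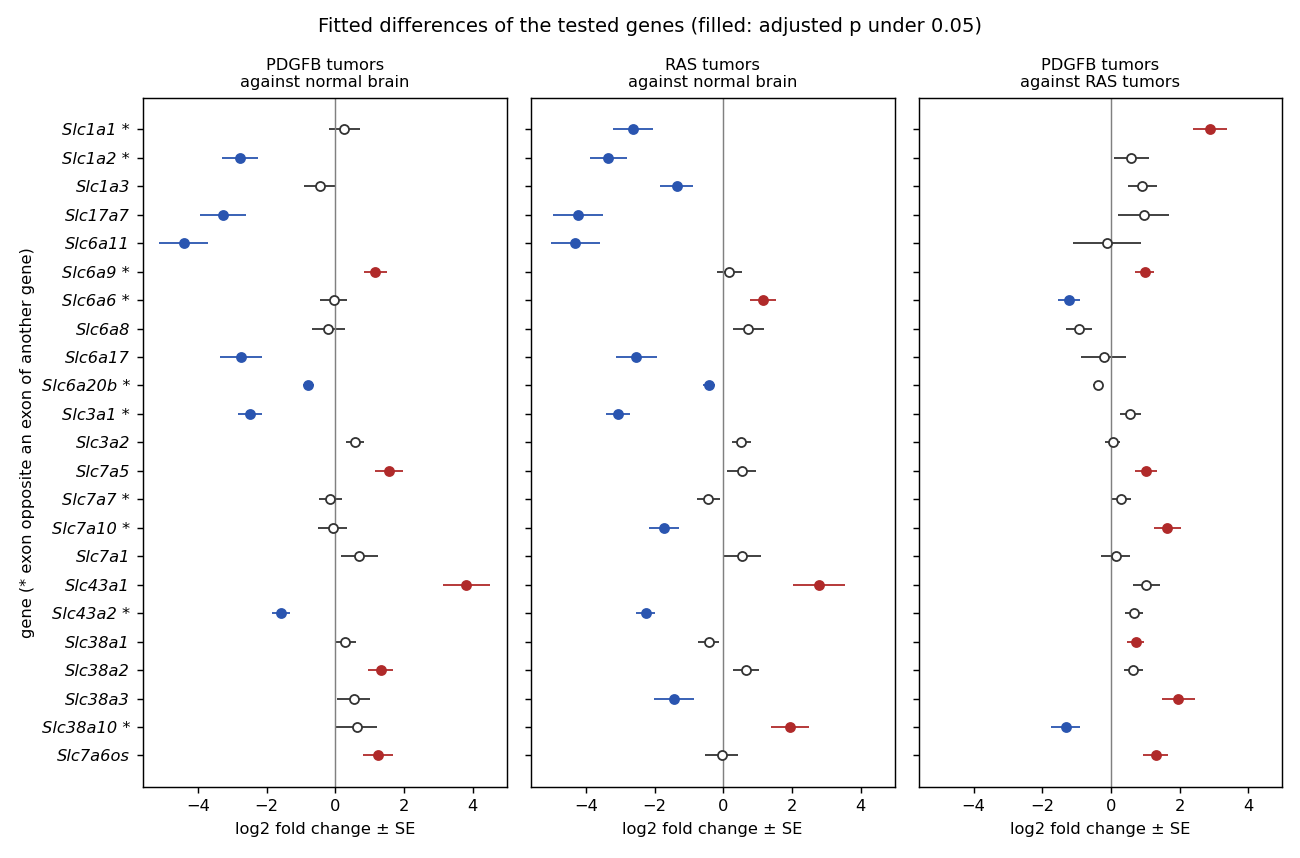
Log2 fold changes of 23 of the 24 tested genes, with standard errors as bars, for PDGFB tumors against normal brain, RAS tumors against normal brain and PDGFB against RAS tumors (n = 5, 5 and 3 libraries). Filled points passed an adjusted p of 0.05, and Slc17a7, Slc1a2, Slc3a1, Slc6a11 and Slc6a17 lie far to the left of zero in both comparisons with normal brain.

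Of the glutamate carriers, Slc1a2 was lower in both tumors, Slc1a1 and Slc1a3 were called lower in RAS tumors and not in PDGFB tumors. Slc1a2 (chr2:102658659-102790784, plus strand) had 29.8, 34.5, 53.8, 124 and 46.3 CPM in PDGFB tumors 1 to 5, 16.4, 110, 15.3, 14.3 and 20.2 CPM in RAS tumors 1 to 5, and 344, 314 and 344 CPM in normal brain. Every tumor was below every normal library, and PDGFB tumor 4 and RAS tumor 2 were the highest of their groups. The difference was -2.77 ± 0.52 in PDGFB tumors (SE, adjusted p = 3.92e-04) and -3.36 ± 0.54 in RAS tumors (adjusted p = 5.76e-05). Without RAS tumor 2 the RAS difference was -4.27 (adjusted p = 2.65e-08). Gm13872, the antisense RNA opposite, had 154 to 438 CPM in PDGFB tumors, 32.3 to 440 CPM in RAS tumors and 1218 to 1434 CPM in normal brain. It moved with Slc1a2, by -2.59 ± 0.60 in PDGFB tumors (adjusted p = 0.00198) and by -3.52 ± 0.62 in RAS tumors (adjusted p = 1.30e-04), and the source strand of these reads was not tested.

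Slc1a3 (chr15:8634124-8710764, minus strand) has no gene opposite and encodes a carrier of astrocytes and radial glia. It had 91.0, 85.4, 81.6, 92.5 and 72.8 CPM in PDGFB tumors, 13.1, 117, 17.0, 19.1 and 40.4 CPM in RAS tumors, and 98.8, 75.6 and 121 CPM in normal brain. The PDGFB values lay close together in or just under the normal range, whereas 4 of the 5 RAS values were below both and RAS tumor 2 was in the normal range. In PDGFB tumors the difference was -0.45 ± 0.47 (adjusted p = 0.449), and in RAS tumors it was -1.36 ± 0.48 (adjusted p = 0.0218). Without RAS tumor 2 it was -2.07 (adjusted p = 2.65e-05). The call did not hold without RAS tumor 1 (-1.04, adjusted p = 0.0659), RAS tumor 4 (-1.10, adjusted p = 0.0560), normal library 1 (-1.28, adjusted p = 0.0731) or normal library 3 (-1.14, adjusted p = 0.0937).

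Slc1a1 (chr19:28835049-28913960, plus strand) shares 2631 exon bases with the protein-coding gene 4430402I18Rik on the other strand. It had 26.7, 24.6, 35.9, 23.1 and 28.1 CPM in PDGFB tumors, 3.27, 8.21, 5.10, 0 and 0 CPM in RAS tumors, and 17.0, 17.0 and 24.8 CPM in normal brain. The RAS tumors lay below every other library, with 10 reads in all. The difference was 0.26 ± 0.45 in PDGFB tumors (adjusted p = 0.667) and -2.62 ± 0.58 in RAS tumors (adjusted p = 8.98e-04). 4430402I18Rik, with 851 to 1166 CPM in PDGFB tumors, 62.2 to 448 CPM in RAS tumors and 1013 to 1141 CPM in normal brain, was also called lower in RAS tumors and not in PDGFB tumors, with differences of -0.26 ± 0.42 in PDGFB tumors (adjusted p = 0.646) and -2.73 ± 0.43 in RAS tumors (adjusted p = 4.40e-05). The share of the Slc1a1 reads that arose from its partner was not tested. Slc1a4, a neutral amino acid exchanger of the same family, was too low to test and had 6 to 11 reads in PDGFB tumors, 3 to 4 in RAS tumors and 2 to 5 in normal brain. PDGFB tumors were above all other libraries. Slc1a5, Slc1a6 and Slc1a7 had at most 6 reads in any library.

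**Figure D2:**
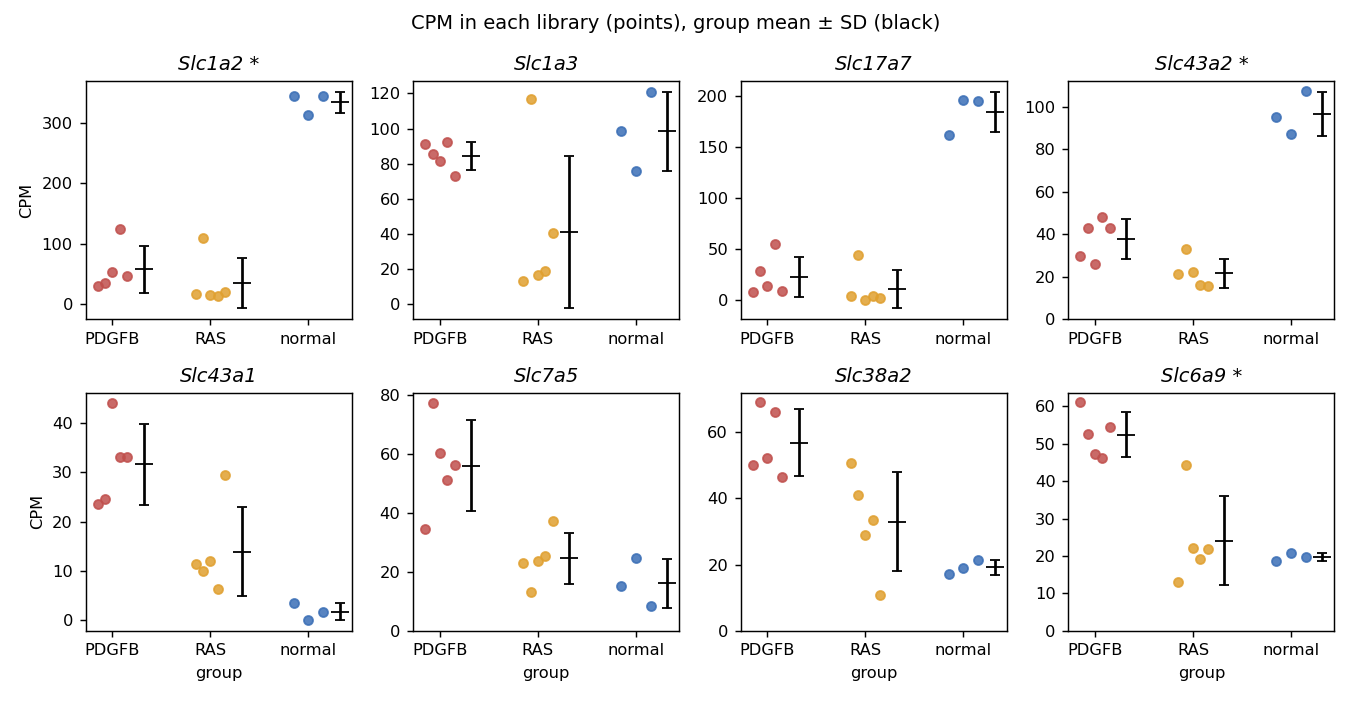
Levels in CPM of selected transporters in each library, with PDGFB tumors, RAS tumors and normal brain from left to right and bars for mean and SD (n = 5, 5 and 3). Slc17a7 and Slc1a2 are below normal brain in every tumor, while Slc43a1 is above it, and RAS tumor 2 is the high RAS point for Slc1a2, Slc1a3 and Slc17a7.

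Of the vesicular transporters only Slc17a7 had reads enough to test, and it was lower in both tumors. Slc17a7 (VGLUT1, chr7:45163949-45176142, plus strand, no gene opposite) loads glutamate into vesicles of cortical excitatory neurons. It had 7.84, 27.9, 13.05, 54.5 and 8.27 CPM in PDGFB tumors, 3.27, 44.3, 0, 3.18 and 1.56 CPM in RAS tumors, and 162, 197 and 195 CPM in normal brain. Every tumor was below every normal library. The difference was -3.28 ± 0.67 in PDGFB tumors (adjusted p = 7.33e-04) and -4.23 ± 0.72 in RAS tumors (adjusted p = 9.96e-05), and without RAS tumor 2 the RAS difference was -6.34 (adjusted p = 5.54e-08). Slc17a6 (VGLUT2), too low for the test, had 0, 0, 1, 1 and 0 reads in PDGFB tumors, 0, 0, 1, 0 and 0 reads in RAS tumors, and 11, 8 and 8 reads in normal brain. Its ratio of counts, with a 95% interval for counting error only, was 24.1-fold lower in PDGFB tumors (6.05 to 209) and 48.3-fold lower in RAS tumors (7.96 to 1978). Slc17a8 had at most 2 reads in a library.

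Slc32a1 (VGAT), which fills vesicles with GABA and glycine, was also under the filter. It had 0, 1, 0, 5 and 0 reads in PDGFB tumors, 0, 4, 0, 0 and 1 reads in RAS tumors, and 15, 9 and 8 reads in normal brain. Every tumor was below every normal library, but the reads are few and 697 of its exon bases lie opposite Gm14205. Gm14205 was itself lower, with 15.7 to 182 CPM in PDGFB tumors, 3.27 to 149 CPM in RAS tumors and 699 to 913 CPM in normal brain. Its differences were -3.63 ± 0.78 in PDGFB tumors (adjusted p = 0.00113) and -4.60 ± 0.82 in RAS tumors (adjusted p = 1.55e-04). All 12 neuron markers were called lower in PDGFB tumors (25.1% of all tested genes were), and 9 of 12 in RAS tumors (29.3%) with none higher. Summed over all 12, their level was 259 to 666 CPM in PDGFB tumors, 4039 to 8554 CPM in RAS tumors and 5766 to 6173 CPM in normal brain, so that RAS tumors overlapped with normal brain on the full sum, and 3 of the markers were called lower in PDGFB than in RAS tumors. Most of that sum was Nefm, which has an opposite exon and averaged 276 CPM in PDGFB tumors, 5069 CPM in RAS tumors and 4164 CPM in normal brain. The 9 markers with no opposite exon summed to 80.0 to 268 CPM in PDGFB tumors, 44.5 to 364 CPM in RAS tumors and 1434 to 1519 CPM in normal brain. Their part in the result was not tested.

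Slc6a11 (GAT3, chr6:114131241-114249952), the astrocyte GABA carrier, was lower in both tumors and had 1.57, 1.64, 4.89, 0 and 1.65 CPM in PDGFB tumors, 0, 8.21, 0, 1.59 and 0 CPM in RAS tumors, and 42.6, 20.8 and 54.5 CPM in normal brain. No tumor reached a normal library, and the differences were -4.42 ± 0.71 in PDGFB tumors (adjusted p = 9.34e-05) and -4.30 ± 0.71 in RAS tumors (adjusted p = 7.24e-05). They rest on 6 reads over the PDGFB tumors and 6 over the RAS tumors, against 69 over normal brain. Slc6a12 and Slc6a13 had at most 1 read in a library.

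Slc6a9 (GLYT1), which clears glycine, was higher in PDGFB tumors. It had 61.2, 52.6, 47.3, 46.3 and 54.6 CPM in PDGFB tumors, 13.1, 44.3, 22.1, 19.1 and 21.8 CPM in RAS tumors, and 18.7, 20.8 and 19.8 CPM in normal brain. All PDGFB tumors were above all other libraries, while RAS tumors overlapped with normal brain and RAS tumor 2 was their highest. The difference from normal brain was 1.16 ± 0.34 in PDGFB tumors (adjusted p = 0.00948) and 0.18 ± 0.35 in RAS tumors (adjusted p = 0.680). Without RAS tumor 2 the RAS difference was -0.01. Slc6a9 shares exon bases with B4galt2, Gm17114 and Ccdc24, and the longest overlap is 1429 bases with Ccdc24, which had 437 to 616 CPM in PDGFB tumors, 192 to 408 CPM in RAS tumors and 401 to 458 CPM in normal brain. Ccdc24 differed from normal brain by 0.09 ± 0.22 in PDGFB tumors (adjusted p = 0.771) and by -0.70 ± 0.22 in RAS tumors (adjusted p = 0.0118). Between the tumors it was called higher in PDGFB tumors, as was Slc6a9. The share of the Slc6a9 reads that arose from Ccdc24 was not tested.

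Of the other Slc6 genes, Slc6a17, a vesicular carrier of neutral amino acids in neurons, was lower in both tumors. It had 1.57, 21.4, 6.52, 16.5 and 4.96 CPM in PDGFB tumors, 1.64, 27.9, 6.79, 15.9 and 1.56 CPM in RAS tumors, and 56.2, 43.5 and 76.0 CPM in normal brain. No tumor reached a normal library, and the differences were -2.75 ± 0.61 in PDGFB tumors (adjusted p = 0.00140) and -2.53 ± 0.60 in RAS tumors (adjusted p = 0.00173). Slc6a6, the taurine transporter, was higher in RAS tumors. It had 12.5, 41.1, 19.6, 14.9 and 24.8 CPM in PDGFB tumors, 68.8, 32.8, 37.4, 54.1 and 45.1 CPM in RAS tumors, and 15.3, 24.6 and 19.8 CPM in normal brain. Every RAS tumor was above every normal library, and the difference was 1.16 ± 0.39 (adjusted p = 0.0159), but without normal library 1 it was 1.05 (adjusted p = 0.0625). In PDGFB tumors the difference was -0.05 ± 0.40 (adjusted p = 0.922), with values on both sides of normal brain. Gm44981, opposite 117 of its exon bases, was under the low-count filter. Slc6a8, the creatine transporter, had 9.92 to 22.0 CPM in PDGFB tumors, 7.78 to 46.1 CPM in RAS tumors and 11.3 to 19.8 CPM in normal brain, and it was called in none of the comparisons. Without RAS tumor 5, its lowest RAS library, it was higher in RAS tumors than in normal brain by 1.07 (adjusted p = 0.0247).

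Slc6a20b carried the second largest number of reads among the 68, and its level is uncertain because it is a near copy of Slc6a20a and shares 1800 exon bases with Sacm1l on the other strand. It had 729, 678, 661, 783 and 833 CPM in PDGFB tumors, 1074, 962, 926, 779 and 633 CPM in RAS tumors, and 1122, 999.7 and 1134 CPM in normal brain. The PDGFB tumors lay below normal brain, by -0.79 ± 0.16 (adjusted p = 7.76e-04), and the RAS tumors overlapped with it at -0.41 ± 0.16 (adjusted p = 0.0396). The RAS call held in only 2 of the 13 fits that left out 1 library, with differences of -0.42 to -0.22 in the other 11 and -0.31 (adjusted p = 0.126) without RAS tumor 2. Sacm1l was itself under the low-count filter, with 8.46 ± 3.52 CPM in PDGFB tumors, 11.98 ± 4.16 CPM in RAS tumors and 12.7 ± 6.61 CPM in normal brain (SD). Slc6a20a, which lies opposite exons of Ccr9, Gm17200 and Gm17120, had reads in normal brain only, 3 in all.

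The light and heavy chains of the heterodimeric carriers divided by gene. Slc7a5 (LAT1, chr8:121881150-121907694, minus strand), the large neutral amino acid carrier, had 34.5, 77.2, 60.4, 51.2 and 56.2 CPM in PDGFB tumors, 22.9, 13.1, 23.8, 25.4 and 37.3 CPM in RAS tumors, and 15.3, 24.6 and 8.26 CPM in normal brain. All PDGFB tumors were above normal brain, with a difference of 1.57 ± 0.40 (adjusted p = 0.00447), while RAS tumors overlapped with it at 0.54 ± 0.42 (adjusted p = 0.287). Slc3a2, its heavy chain (CD98), had 40.8, 49.3, 48.9, 41.3 and 39.7 CPM in PDGFB tumors, 49.1, 32.8, 40.8, 38.2 and 32.7 CPM in RAS tumors, and 22.1, 26.5 and 26.4 CPM in normal brain. Every tumor was above every normal library for Slc3a2, but the differences of 0.58 ± 0.26 in PDGFB tumors (adjusted p = 0.0815) and 0.53 ± 0.26 in RAS tumors (adjusted p = 0.0957) were not called. Both passed the threshold without RAS tumor 2, at 0.67 (adjusted p = 0.0461) in PDGFB tumors and 0.72 (adjusted p = 0.0360) in RAS tumors, and without RAS tumor 5, at 0.68 in each. Without RAS tumor 1 it passed in PDGFB tumors alone, at 0.66 (adjusted p = 0.0447).

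Slc43a1 (LAT3), another carrier of large neutral amino acids, was higher in both tumors. It had 23.5, 24.6, 44.0, 33.1 and 33.1 CPM in PDGFB tumors, 11.5, 9.85, 11.9, 6.36 and 29.5 CPM in RAS tumors, and 3.41, 0 and 1.65 CPM in normal brain. Only 3 reads in all were counted in normal brain, and the ratio of counts was 18.1-fold higher in PDGFB tumors (95% interval 6.02 to 89.5) and 8.01-fold higher in RAS tumors (2.56 to 40.4), each called in the fit (adjusted p = 2.92e-04 in PDGFB tumors and 0.00444 in RAS tumors). Slc43a2 (LAT4) was lower in both tumors. It had 29.8, 42.7, 26.1, 47.9 and 43.0 CPM in PDGFB tumors, 21.3, 32.8, 22.1, 15.9 and 15.6 CPM in RAS tumors, and 95.4, 86.9 and 107 CPM in normal brain. Every tumor lay below the normal libraries, by -1.58 ± 0.26 in PDGFB tumors (adjusted p = 1.32e-04) and -2.26 ± 0.27 in RAS tumors (adjusted p = 4.30e-06). It overlaps exons of Gm45606 on the other strand, whose differences of -0.02 in PDGFB tumors and -0.37 in RAS tumors were not called.

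Slc3a1 (rBAT), a heavy chain known for cystine uptake in kidney and gut, had the most reads of all 68 genes. It had 402, 563, 621, 782 and 404 CPM in PDGFB tumors, 216, 796, 294, 234 and 193 CPM in RAS tumors, and 2617, 2589 and 2752 CPM in normal brain. Every tumor was below every normal library, and RAS tumor 2 was the highest of the RAS tumors. The difference was -2.49 ± 0.35 in PDGFB tumors (adjusted p = 2.71e-05) and -3.05 ± 0.35 in RAS tumors (adjusted p = 2.42e-06). Slc3a1 shares 601 exon bases with Prepl on the other strand, a gene that is itself counted at 6.57 to 26.7 CPM in PDGFB tumors, 15.6 to 36.1 CPM in RAS tumors and 64.3 to 74.9 CPM in normal brain. Prepl was lower too, at -2.00 ± 0.34 in PDGFB tumors (adjusted p = 1.76e-04) and -1.80 ± 0.34 in RAS tumors (adjusted p = 2.58e-04). The strand from which the Slc3a1 reads came was not tested.

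Slc7a10 (Asc-1), which exchanges small neutral amino acids including D-serine, was lower in RAS tumors. It had 179, 87.0, 160, 183 and 174 CPM in PDGFB tumors, 26.2, 42.7, 117, 15.9 and 28.0 CPM in RAS tumors, and 148, 153 and 122 CPM in normal brain. RAS tumor 3 was the only RAS tumor near normal brain, and PDGFB tumor 2 the only PDGFB tumor below it. The difference was -0.08 ± 0.43 in PDGFB tumors (adjusted p = 0.886) and -1.72 ± 0.44 in RAS tumors (adjusted p = 0.00282). Lrp3, which shares 377 exon bases with it, was lower in both tumors, by -2.26 ± 0.36 (adjusted p = 1.05e-04) in PDGFB tumors and -3.18 ± 0.38 (adjusted p = 3.85e-06) in RAS tumors. The share of the Slc7a10 reads that arose from Lrp3 was not tested. Slc7a1 (CAT-1, arginine and lysine) and Slc7a7 (y+LAT1) were called in none of the comparisons. Slc7a1 had 9.92 to 26.4 CPM in PDGFB tumors, 5.10 to 27.0 CPM in RAS tumors and 7.56 to 13.6 CPM in normal brain. Slc7a7 had 31.0 to 49.6 CPM in PDGFB tumors, 17.1 to 50.9 CPM in RAS tumors and 34.7 to 43.5 CPM in normal brain. Oxa1l, opposite 232 of its exon bases, was higher by 1.91 ± 0.36 in PDGFB tumors (adjusted p = 4.14e-04) and 3.19 ± 0.35 in RAS tumors (adjusted p = 1.60e-06). Slc7a11 (xCT), which takes up cystine and is much studied in glioma, was too low to test and had 0 to 3 reads in PDGFB tumors, 0 to 12 in RAS tumors and 0 to 5 in normal brain.

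The Slc38 glutamine and alanine carriers moved in different directions. Slc38a2 (SNAT2), a system A carrier induced when amino acids are scarce, had 50.2, 69.0, 52.2, 66.1 and 46.3 CPM in PDGFB tumors, 50.7, 41.0, 28.9, 33.4 and 10.9 CPM in RAS tumors, and 17.0, 18.9 and 21.5 CPM in normal brain. All PDGFB tumors were above normal brain, by 1.32 ± 0.37 (adjusted p = 0.00725). RAS tumors differed by 0.67 ± 0.38 (adjusted p = 0.139), with RAS tumor 5 the lowest of all 13 libraries, and without it the difference was 0.99 (adjusted p = 0.00946). Slc38a1 (SNAT1) had 98.8, 136, 60.4, 84.3 and 89.3 CPM in PDGFB tumors, 55.7, 52.5, 34.0, 76.3 and 38.9 CPM in RAS tumors, and 68.1, 56.7 and 69.4 CPM in normal brain. It differed from normal brain by 0.29 ± 0.30 in PDGFB tumors (adjusted p = 0.440) and by -0.42 ± 0.30 in RAS tumors (adjusted p = 0.239), and all groups overlapped.

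Slc38a3 (SNAT3), the astrocyte glutamine exporter, had 17.3, 13.1, 19.6, 13.2 and 16.5 CPM in PDGFB tumors, 3.27, 3.28, 6.79, 1.59 and 3.11 CPM in RAS tumors, and 15.3, 9.45 and 3.31 CPM in normal brain. Its RAS difference was -1.43 ± 0.58 (adjusted p = 0.0440), but the groups overlapped and held few reads, 11 over RAS tumors and 16 over normal brain. The call did not hold without PDGFB tumor 4, any of RAS tumors 1, 2, 4 and 5, or normal library 1 or 2, where the difference was -1.38 to -0.81, and without RAS tumor 2 it was -1.27 (adjusted p = 0.0906). In PDGFB tumors it was 0.53 ± 0.49 (adjusted p = 0.396). Slc38a10, an amino acid carrier found widely in the brain, had 18.8, 21.4, 9.79, 6.61 and 13.2 CPM in PDGFB tumors, 19.6, 26.3, 18.7, 30.2 and 62.2 CPM in RAS tumors, and 5.11, 13.2 and 4.96 CPM in normal brain. Every RAS tumor was above normal brain, with a difference of 1.94 ± 0.56 (adjusted p = 0.00648), and PDGFB tumors overlapped with it at 0.63 ± 0.59 (adjusted p = 0.410). Gm11769, which shares 367 exon bases with Slc38a10, was not called, at 0.14 ± 0.30 in PDGFB tumors and 0.59 ± 0.30 in RAS tumors. Slc7a6os, the gene named for the strand opposite Slc7a6, had 22.0, 14.8, 24.5, 19.8 and 34.7 CPM in PDGFB tumors, 9.82, 9.85, 11.9, 4.77 and 6.22 CPM in RAS tumors, and 6.81, 11.3 and 6.61 CPM in normal brain. It was higher in PDGFB tumors, by 1.25 ± 0.44 (adjusted p = 0.0262), with no overlap, and it was not called in RAS tumors, at -0.05 ± 0.48 (adjusted p = 0.939). The PDGFB call did not hold without PDGFB tumor 5 (1.07, adjusted p = 0.0686), normal library 1 (1.23, adjusted p = 0.0724) or normal library 3 (1.19, adjusted p = 0.0838).

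**Figure D3:**
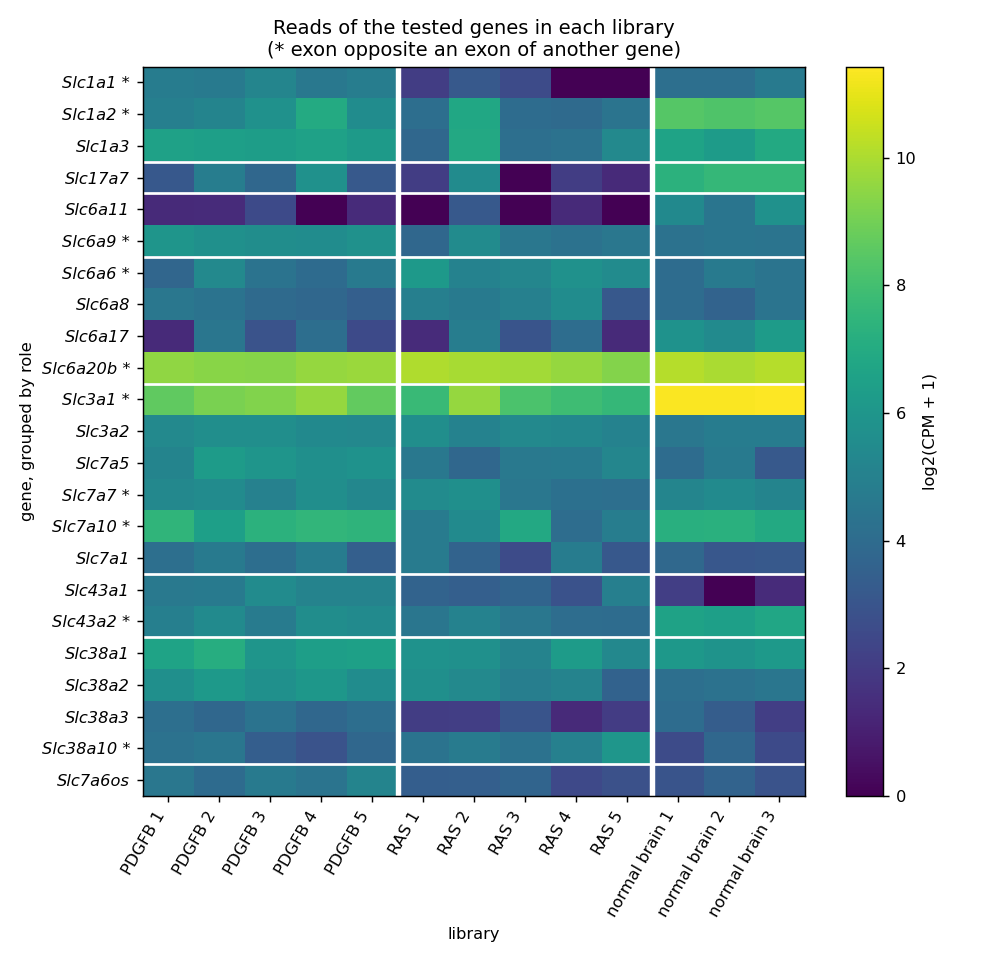
Level of 23 of the 24 tested genes, grouped by role, in each of the 13 libraries as log2(CPM + 1) by color, with PDGFB tumors left, RAS tumors next and normal brain right; a star marks an exon opposite another gene's exon. Slc17a7, Slc1a2, Slc3a1 and Slc6a11 are highest in the 3 normal columns, and RAS tumor 2 is the brightest RAS column for Slc1a2, Slc1a3 and Slc17a7.

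The tumors also differed from each other. PDGFB tumors were called higher than RAS tumors for 7 of the 24 genes and lower for 2, and 4 did not overlap, where 14.6% of all genes tested were called higher, 17.4% lower and 32.1% either way, and 20.3% did not overlap. The median log2 difference was 0.62 for the 24 genes and 0.03 for all genes. Both comparisons with normal brain share the same 3 control libraries, and the contrast here is the direct one. Slc1a1 differed most, at 2.88 ± 0.50 (adjusted p = 3.61e-04), and 4430402I18Rik opposite it differed by 2.47 ± 0.39 (adjusted p = 1.54e-04). Slc38a3 was higher in PDGFB tumors by 1.96 ± 0.48 (adjusted p = 0.00469), Slc7a10 by 1.64 ± 0.39 (adjusted p = 0.00427) and Slc7a6os by 1.30 ± 0.36 (adjusted p = 0.0104). Over the RAS tumors only 11 reads were counted for Slc38a3 and 10 for Slc1a1, so these folds are imprecise. Slc7a5 was higher by 1.02 ± 0.32 (adjusted p = 0.0195), Slc6a9 by 0.98 ± 0.27 (adjusted p = 0.0113) and Slc38a1 by 0.72 ± 0.26 (adjusted p = 0.0406). Opposite Slc6a9, Ccdc24 was also called higher in PDGFB tumors, by 0.79 ± 0.19 (adjusted p = 0.00512), and Gm17114 was not called, at 0.38 ± 0.38 (adjusted p = 0.474). Lrp3, opposite Slc7a10, was not called, at 0.92 ± 0.36 (adjusted p = 0.0579). Slc38a10 differed by -1.32 ± 0.42 (adjusted p = 0.0221) and Slc6a6 by -1.22 ± 0.32 (adjusted p = 0.00712), both lower in PDGFB tumors. The Slc7a5 call did not hold without PDGFB tumor 2 (0.90, adjusted p = 0.0529), nor that of Slc38a10 without PDGFB tumor 3 (-1.20, adjusted p = 0.0594), PDGFB tumor 4 (-1.12, adjusted p = 0.0633) or RAS tumor 5 (-0.88, adjusted p = 0.0907). That of Slc38a1 did not hold without 7 of the 10 tumors, with differences of 0.56 to 0.74. With library totals the all-gene split moved to 1445 higher and 1075 lower, against 1130 and 1346.

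The calls of several transporters in this contrast changed without RAS tumor 2. It was singled out by its values for some of these same genes. Without it 11 of the 24 genes were called higher in PDGFB tumors and 2 lower. Among all genes tested in that fit, 1541 were called higher and 1502 lower, against 1130 and 1346 with all libraries. Calls thus rose among all genes as well, and the number tested in that fit is not given here. Slc17a7 differed by 3.16 (adjusted p = 0.00141), Slc1a3 by 1.71 (adjusted p = 2.02e-04), Slc1a2 by 1.60 (adjusted p = 0.00237), Slc3a1 by 1.06 (adjusted p = 2.95e-04) and Slc43a2 by 0.84 (adjusted p = 0.0208), whereas Slc38a1 was 0.69 and no longer called (adjusted p = 0.0518). With all libraries Slc17a7 differed by 0.95 ± 0.75 (adjusted p = 0.350), Slc1a2 by 0.59 ± 0.51 (adjusted p = 0.401) and Slc1a3 by 0.91 ± 0.43 (adjusted p = 0.114). Slc3a1 then differed by 0.56 ± 0.31 (adjusted p = 0.179) and Slc43a2 by 0.67 ± 0.26 (adjusted p = 0.0563), and none of these genes was called. Without RAS tumor 5, Slc43a1 was called higher (1.54, adjusted p = 0.00457), and Slc6a8 (-1.17, adjusted p = 0.0119) and Slc6a20b (-0.47, adjusted p = 0.0182) lower. Slc38a2 was called higher without RAS tumor 1 (0.85, adjusted p = 0.0423), Slc43a2 without PDGFB tumor 3 (0.81, adjusted p = 0.0381) and Slc43a1 without normal library 2 (1.08, adjusted p = 0.0469).

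**Figure D4:**
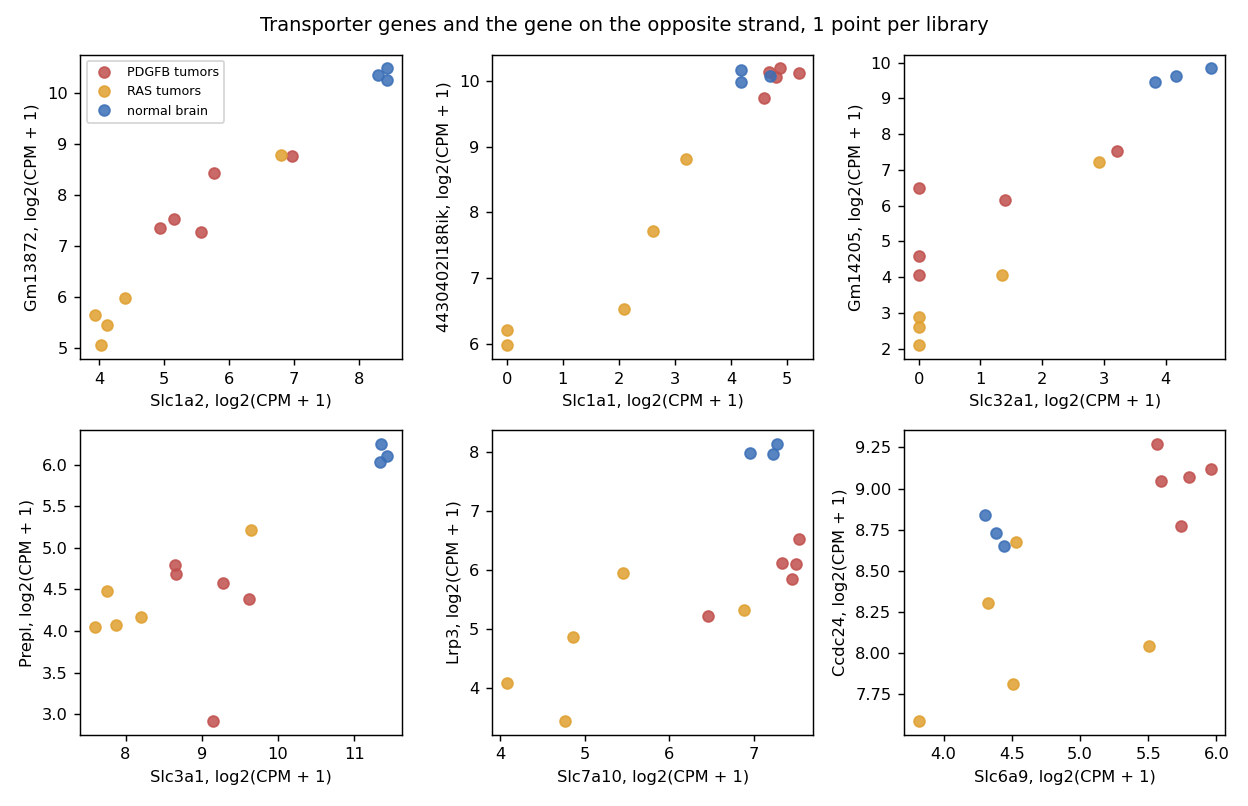
Level of 6 transporter genes (horizontal axis) against the gene on the opposite strand (vertical axis), both as log2(CPM + 1), with 1 point per library colored by PDGFB tumors, RAS tumors and normal brain. Normal brain lies at the upper right for Slc1a2 with Gm13872, Slc32a1 with Gm14205 and Slc3a1 with Prepl, and RAS tumors lie at the lower left for Slc1a1 with 4430402I18Rik.

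Genes that make, degrade or sense the transported amino acids were described by lists drawn up with earlier results known. Of 14 tested genes of glutamate, GABA and glycine metabolism, 2 were called higher and 9 lower in PDGFB tumors, where 25.1% of all genes were lower, and 2 higher and 8 lower in RAS tumors, where 29.3% were. Gad2, which makes GABA, averaged 4.62 CPM in PDGFB tumors, 7.21 CPM in RAS tumors and 52.0 CPM in normal brain (-3.68 ± 0.71 in PDGFB tumors, adjusted p = 4.62e-04, and -2.94 ± 0.67 in RAS tumors, adjusted p = 0.00118). Gad1, the other GABA-making enzyme, differed by -2.69 ± 0.61 in PDGFB tumors (adjusted p = 0.00164) and -3.80 ± 0.68 in RAS tumors (adjusted p = 1.62e-04), and the GABA-degrading Abat by -1.90 ± 0.50 in PDGFB tumors (adjusted p = 0.00505) and -3.22 ± 0.56 in RAS tumors (adjusted p = 1.24e-04). Got1, which links glutamate and aspartate, was lower, at -2.73 ± 0.50 in PDGFB tumors (adjusted p = 2.95e-04) and -2.00 ± 0.48 in RAS tumors (adjusted p = 0.00166). Gad1 lies opposite an intron, and the other 3 have no gene opposite.

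Genes of amino acid synthesis and the response to its shortage were called higher for 4 of 9 in PDGFB tumors (20.2% of all tested genes were) and 5 of 9 in RAS tumors (26.9%), with none lower and the rest not called. Phgdh, which opens serine synthesis, differed by 1.73 ± 0.46 in PDGFB tumors (adjusted p = 0.00526) and 1.66 ± 0.46 in RAS tumors (adjusted p = 0.00553), and Aldh18a1, of proline synthesis, by 1.75 ± 0.56 in PDGFB tumors (adjusted p = 0.0176) and 1.60 ± 0.57 in RAS tumors (adjusted p = 0.0248). Atf4, the transcription factor of the shortage response, was called in RAS tumors, at 1.89 ± 0.39 (adjusted p = 4.83e-04), and was at 0.98 ± 0.39 in PDGFB tumors (adjusted p = 0.0512). Cebpb, its partner in stress responses, was 2.66 ± 0.58 in RAS tumors (adjusted p = 8.94e-04) and 0.15 ± 0.66 in PDGFB tumors, and an exon lies opposite it. Of 6 tested glutathione and cysteine genes, 2 were higher in PDGFB tumors and 4 in RAS tumors, with none lower, beside the same 20.2% and 26.9% of all genes. Txnrd1 was higher by 1.15 ± 0.39 in PDGFB tumors (adjusted p = 0.0213) and 1.20 ± 0.39 in RAS tumors (adjusted p = 0.0136), while Nfe2l2 was higher in RAS tumors only by its call, at 1.73 ± 0.52 (adjusted p = 0.00874). Gpx4 was also called in RAS tumors, at 1.01 ± 0.41 (adjusted p = 0.0430). Hmox1, which degrades heme under oxidative stress, had 179 reads over the PDGFB tumors, 152 over the RAS tumors and 1 over normal brain, a ratio of counts of 100.4-fold (95% interval 17.8 to 3987) in PDGFB tumors and 84.9-fold (15.02 to 3377) in RAS tumors. PDGFB tumors were lower than RAS tumors for Nfe2l2, by -1.62 ± 0.41 (adjusted p = 0.00618), and for Cebpb, by -2.51 ± 0.46 (adjusted p = 5.13e-04). Of 5 tested genes of amino acid sensing by mTORC1, Nprl3 was higher, by 0.82 ± 0.21 in PDGFB tumors (adjusted p = 0.00473) and 0.70 ± 0.21 in RAS tumors (adjusted p = 0.00925), with an exon opposite, and Rragd was lower in RAS tumors, at -1.55 ± 0.42 (adjusted p = 0.00415). Of 9 genes of other vesicular and monoamine uptake, only Slc18a2 was tested, and an exon lies opposite it. Slc18a2 was lower in both tumors, at -1.36 ± 0.32 in PDGFB tumors (adjusted p = 0.00251) and -1.20 ± 0.32 in RAS tumors (adjusted p = 0.00438). Of 5 other amino acid transporters, a list that also holds Slc7a5 and Slc3a2, 1 was higher and 1 lower in each tumor, and Slc25a22, the mitochondrial glutamate carrier, was lower, at -2.37 ± 0.51 in PDGFB tumors (adjusted p = 0.00115) and -2.09 ± 0.50 in RAS tumors (adjusted p = 0.00191).

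Some astrocyte markers were called lower in each tumor. Of 9 tested astrocyte markers, 0 were higher and 5 lower in PDGFB tumors, and 1 was higher and 4 lower in RAS tumors. The 8 with no opposite exon summed to 136 to 349 CPM in PDGFB tumors, 104 to 527 CPM in RAS tumors and 378 to 550 CPM in normal brain, and RAS tumor 2 was the 527. Markers of oligodendrocyte precursors were called higher for 8 of 8 in PDGFB tumors and 4 of 8 in RAS tumors, and mature oligodendrocyte markers lower for 4 of 5 in PDGFB tumors and 5 of 5 in RAS tumors. Macrophage and microglia markers were higher for 5 of 7 in RAS tumors and for 2 of 7, with 1 lower, in PDGFB tumors. Of all tested genes, 20.2% were higher and 25.1% lower in PDGFB tumors, and 26.9% higher and 29.3% lower in RAS tumors. The part of these cell types in the transporter differences was not tested.

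The 44 members under the filter were described by reads alone. Of these, 14 had no read in any library, namely Slc1a7, Slc36a2, Slc36a3, Slc38a8, Slc38a11, Slc6a2, Slc6a5, Slc6a14, Slc6a16, Slc6a18, Slc6a19, Slc7a9, Slc7a12 and Slc7a13. A further 10 had 1 to 9 reads over all libraries, namely Slc17a8, Slc1a5, Slc38a5, Slc6a3, Slc6a4, Slc6a12, Slc6a13, Slc6a20a, Slc6a21 and Slc7a15, and 20 had 10 or more. Slc6a15, a neutral amino acid carrier of neurons, had 2 to 10 reads in PDGFB tumors, 0 to 6 in RAS tumors and 6 to 9 in normal brain. Slc6a7, the brain proline transporter, had 0 to 3 reads in PDGFB tumors, 0 to 1 in RAS tumors and 2 to 9 in normal brain. Slc7a4, of the Slc7 family, had 0 to 1 reads in PDGFB tumors, 0 to 3 in RAS tumors and 1 to 6 in normal brain. P2rx6 opposite it was lower, at -3.05 ± 0.63 in PDGFB tumors (adjusted p = 8.14e-04) and -3.84 ± 0.67 in RAS tumors (adjusted p = 1.30e-04). Slc7a6, a light chain for basic and neutral amino acids, had 1 to 7 reads in PDGFB tumors, 1 to 3 in RAS tumors and 1 in each normal library. Slc36a1, Slc36a4, Slc38a4, Slc38a6, Slc38a7, Slc38a9, Slc43a3, Slc7a2, Slc7a3, Slc7a8 and Slc7a14 had between 0 and 11 reads in a library. Slc38a9 lies opposite exons of Gm47827, which was not tested, and Slc7a2 opposite Gm26584, which was not analysed here. Slc6a3 and Slc6a4, the carriers of dopamine and serotonin, had at most 2 reads in a library.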

How the data were processed

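The authors deposited 1 table of raw counts, whole reads per Ensembl gene for all 13 libraries of polyadenylated RNA. Per the labels' protocols, Trizol was used for RNA and a TruSeq RNA kit for the libraries, and per the submitters' processing notes fastp 0.22.0, STAR 2.7.9a and GRCm38 were used; the annotation and strand setting of the count are not given in the sources used here. Names, exons and strands were read from GENCODE M21 on GRCm38, where 52135 of the 55416 genes were found. The summary lines for unmapped and unassigned reads were left out of library sizes. Depth per library was 529162 to 643055 gene reads, which leaves low genes imprecise, and intervals cover counting error only.

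Groups followed the labels. Counts entered edgeR's quasi-likelihood test (edgeR 4.0.16, R 4.3.3), with TMM factors, filterByExpr (minimum count 10, minimum total 15), all 13 libraries in 1 fit of 3 groups, and Benjamini-Hochberg adjustment over 7722 genes. CPM are reads per 1000000 gene reads, without TMM factors. Gene ratios with 1 to 3 reads on one side used counts with an exact 95% interval. The scripts were tested on simulated data. The tested genes were named except 1, which counts in the totals and is not reported here, with values in every library for those called, and other genes by range. Alternatives were DESeq2 1.42.0, limma 3.58.1 (voom), other scalings and filters, pairs of groups, a replicate block, a threshold of 0.01, genes with no opposite exon, and each library left out. Same-numbered tumors were not paired by the labels. The members, marker lists and pathway lists were chosen with earlier results of these data known.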

Additional observations from a re-analysis of the deposited data

Results flagged for a closer look

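In 48 groups of 5 tested libraries, taken gene by gene, a single library stood apart from the other 4 by the gap test of Dixon in 11 cases over 9 genes. For independent, normally distributed values the test flags about 1 in 20 groups. These values are often low counts, and the genes share libraries, so the 11 cases cannot be set against that rate. RAS tumor 2 was the high library in 6 of the 11. It had 44.3 CPM for Slc17a7 (0 to 3.27 CPM in the other RAS tumors), 110.0 CPM for Slc1a2 (14.3 to 20.2), 117 CPM for Slc1a3 (13.1 to 40.4), 796 CPM for Slc3a1 (193 to 294), 8.21 CPM for Slc6a11 (0 to 1.59) and 44.3 CPM for Slc6a9 (13.1 to 22.1). RAS tumor 5 was the high library for Slc38a10, at 62.2 CPM (18.7 to 30.2 in the others), and for Slc43a1, at 29.5 CPM (6.36 to 11.9). PDGFB tumor 4 was high for Slc1a2, at 124 CPM (29.8 to 53.8 in the others). For Slc7a10, PDGFB tumor 2 was low, at 87.0 CPM (160 to 183), and RAS tumor 3 was high, at 117 CPM (15.9 to 42.7). The part of sample composition in these values was not tested.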

How the results depend on the processing

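Of the 1487 comparisons of a result with an alternative, 1342 kept direction and side of the threshold, 63 fell below it, 32 passed it and 50 changed sign, all 50 at uncalled genes. Members called lower in PDGFB tumors against normal brain were 13 at a filter of 1 CPM in 3 libraries, which tests more genes, and 4 with the genes opposite no exon fitted alone, which leaves fewer. Among all genes, lower calls in this comparison moved as well, from 1940 to 2302 at the 1 CPM filter and to 697 with the genes opposite no exon. In that last fit RAS tumors had 1 higher and 5 lower against normal brain, and PDGFB against RAS tumors had 0 lower. All-gene calls in the same fit were 862 higher and 869 lower in RAS tumors, against 2081 and 2259 in the main fit. Between the tumors 479 of all genes were lower there, against 1346. PDGFB against RAS tumors had 11 higher with no filter, 4 with only both groups fitted and 3 at an adjusted p under 0.01, where 1 was lower. For all genes the higher calls under the same settings were 1571, 809 and 626, against 1130, and 839 were lower at 0.01. Leaving out 1 library gave 2 to 6 higher in RAS tumors against normal brain, and 5 to 11 higher and 1 to 3 lower between the tumors. All-gene calls in those fits were 1919 to 2311 higher in RAS tumors, and 919 to 1541 higher and 1088 to 1502 lower between the tumors.

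Uncalled genes changed sign. In PDGFB tumors against normal brain, Slc6a6 was 0.18 with library totals, 0.068 with no filter, 0.048 at 1 CPM, 0.072 with only both groups and -0.36 to 0.21 without 1 library. Slc7a10 was 0.15, 0.046, 0.027, 0.044 and -0.13 to 0.078 under the same. Slc6a8 was 0.028 with library totals and -0.34 to 0.092 without 1 library, and Slc7a7 0.090 and -0.17 to 0.059. In RAS tumors against normal brain, Slc7a6os was 0.048 with library totals, 0.0061 with no filter, 0.020 at 1 CPM and -0.14 to 0.28 without 1 library, and Slc6a9 -0.010 to 0.43. Between the tumors Slc6a11 was 0.0024 with library totals, 0.36 with limma-voom and -0.70 to 1.68 without 1 library, and Slc6a17 0.023 with limma-voom and -0.65 to 0.44. Without 1 library Slc3a2 was -0.042 to 0.14 and Slc7a1 -0.084 to 0.45. The cause was not tested.

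Same-numbered tumors did not visibly deviate together (correlations -0.13 to 0.14, and 1 of 5 numbers best with its own). With 5 numbers this cannot exclude that the tumors were paired or shared a batch. With the replicate block 6 members were higher and 2 lower in PDGFB than in RAS tumors, with Slc1a3 and Slc43a1 newly called, at 1.29 and 1.12, and Slc38a1 at 0.74 no longer called. Among all genes, 815 were called higher and 890 lower with the block, against 1130 and 1346 in the main fit. Slc38a3 and Slc7a6os were not tested in that fit, whose filter on the tumors alone left 18 members. Depth of 529162 to 643055 gene reads limits the genes under 10 reads.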
